A study of Mus musculus with 42 samples.

Results

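The change in gene expression between postnatal day 14 (P14) and postnatal day 28 (P28) was compared between Purkinje cells and the Stellate/Basket cells that inhibit them. The measure was the difference of changes, defined for each gene as the Purkinje change (P28 minus P14) minus the Stellate/Basket change (P28 minus P14) on the log2 scale. A positive value means that the gene moved up in Purkinje cells relative to Stellate/Basket cells, and a negative value means the reverse. The comparison used 15 of the 42 deposited columns, with 3 arrays of Purkinje cells at P14, 4 of Purkinje cells at P28, 4 of Stellate/Basket cells at P14 and 4 of Stellate/Basket cells at P28. The values covered 17478 genes, each read by 1 probe set of the Affymetrix MOE430.2 array.

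All cells came from the cerebellum of G42 mice (CB6-Tg(Gad1-EGFP)G42Zjh/J), which carry a Gad67-GFP BAC transgene and are labelled male in every group. Green fluorescent protein driven by the Gad67 (Gad1) promoter marks GABAergic cells, and cells were picked by hand for fluorescence and for the size of the soma. Stellate and basket cells were therefore 1 pool, and the labels do not say how many animals gave an array. The slices had been exposed to AP5, CNQX and TTX, which block NMDA receptors, AMPA and kainate receptors and sodium channels, and to a mild protease. The RNA of every array went through a pair of amplification rounds, and the arrays are labelled as biological replicates.

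Purkinje cells carry the output of the cerebellar cortex, and like stellate and basket cells they release GABA. Stellate cells contact Purkinje dendrites and basket cells contact the soma and the initial segment of the axon, so that the cells compared are synaptic partners. Both kinds of interneuron are born after birth from precursors in the white matter, later than Purkinje cells, and settle in the molecular layer while the parallel fibre input is still growing. Bergmann glia, specialised astrocytes, wrap Purkinje dendrites and the synapses on them.

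The labelled cell types were checked against marker genes. In Purkinje arrays, the mean of 8 Purkinje cell markers was 12.66 ± 0.01 (SD, n = 3) at P14 and 12.41 ± 0.16 (SD, n = 4) at P28, on the log2 scale of the deposited values. All 8 markers were above a log2 value of 8 at both ages. In the same arrays, the mean of 9 interneuron markers was 6.57 ± 0.06 (SD, n = 3) at P14 and 6.43 ± 0.08 (SD, n = 4) at P28. Of these 9, Kit, Lypd6, Tfap2b, Nxph1 and Cnr1 were at or below 6 at both ages, and 1 was above 8 at each age. In Stellate/Basket arrays, the mean of 9 interneuron markers was 10.77 ± 0.20 (SD, n = 4) at P14 and 10.39 ± 0.06 (SD, n = 4) at P28. Gad1, the GABA-synthesising enzyme whose promoter drives the transgene, had a Purkinje change of 0.04 and a Stellate/Basket change of 0.44, and neither reached the difference of 1 asked of a call.

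Markers of other cells also moved in the Stellate/Basket arrays. The mean of 12 astrocyte and Bergmann glia markers was 7.23 ± 0.53 (SD, n = 4) in Stellate/Basket arrays at P14, between 6.78 and 7.84, and 10.17 ± 0.02 (SD, n = 4) at P28, between 10.15 and 10.19. In Purkinje arrays the same mean was 6.89 ± 0.04 (SD, n = 3) at P14 and 7.23 ± 0.25 (SD, n = 4) at P28. Of the 12 glial markers, 11 rose in Stellate/Basket cells, and 10 were called in the difference of changes defined above. Thus 4 of the 12 glial markers were above 8 in Stellate/Basket cells at P14 and 9 of 12 at P28, with Aldh1l1 and Gjb6 at or below 6 at P14 and none that low at P28. The 8 Purkinje markers followed the same course in Stellate/Basket arrays, with a mean of 8.13 ± 0.64 (SD, n = 4) at P14, between 7.42 and 8.81, and values between 9.87 and 10.12 at P28. Among the other lists, the mean in Stellate/Basket arrays went from 6.87 to 7.25 for 7 granule cell markers, from 6.90 to 7.13 for 7 oligodendrocyte markers, from 6.11 to 6.41 for 6 microglia markers, from 5.88 to 6.19 for 6 endothelial markers and from 6.83 to 6.73 for 6 markers of Golgi and unipolar brush cells. The part of these markers' shift in the results below was not tested, and in pools of sorted cells a different number of cells of a type cannot be told apart from a different amount of RNA per cell.

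**Figure D1:**
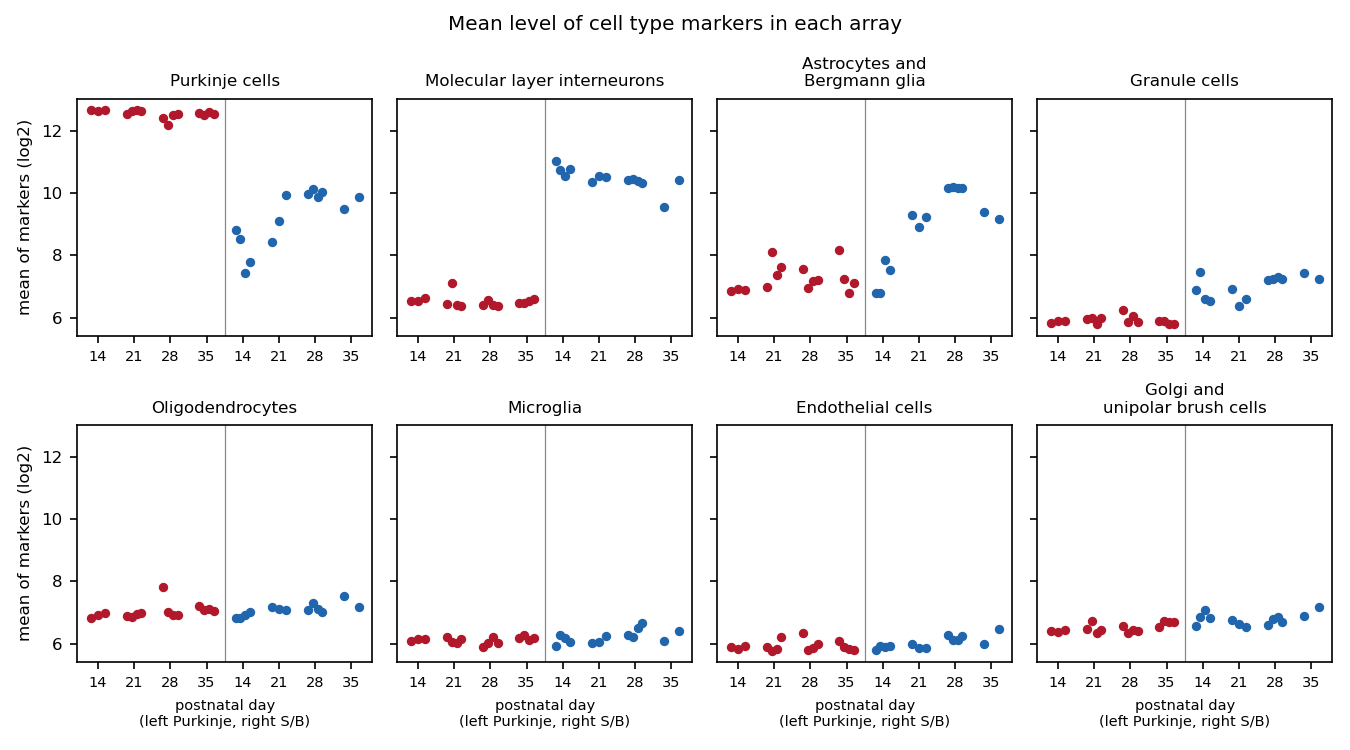
Mean log2 level of the markers of 8 cell types in each array, by postnatal day, with Purkinje arrays in red on the left of each panel and Stellate/Basket (S/B) arrays in blue on the right. The glial mean of the Stellate/Basket arrays lies between 6.78 and 7.84 at P14 and between 10.15 and 10.19 at P28, while the interneuron mean goes from 10.77 to 10.39.

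The arrays also differed in ways that the labels do not give. Xist, the RNA that coats the inactive X chromosome, was 6.47, 6.55 and 6.59 in Purkinje cells at P14 and 7.08, 7.22, 10.83 and 11.07 in Purkinje cells at P28. It was 12.77 to 12.88 in Stellate/Basket cells at P14 and 12.29 to 12.54 at P28. The Y-linked gene Eif2s3y ran the other way, at 8.44 to 9.02 in Purkinje cells at P14, at 8.28, 6.95, 4.39 and 4.38 at P28, and at or below 5.82 in every Stellate/Basket array of either age. The Purkinje arrays at P28 thus split into 2 with low Xist (replicates 1 and 2) and 2 with high Xist (replicates 3 and 4), against the label male, and replicates 3 and 4 correlated at r = 0.994 across genes where the other pairs lay between 0.965 and 0.976. Replicate 1 at P28 also held the highest value of several glial and vascular markers among Purkinje arrays of P14 and P28, such as Gja1 at 9.35 where the other 3 arrays of P28 were at 5.10 to 5.17. Purkinje arrays of P21 and P35 held Gja1 between 5.04 and 9.89. The counts over all genes are therefore also given for the 2 arrays of low Xist and for the 2 of high Xist, and losses of a call are named beside the genes. Of the called values of named genes that use these arrays, 20 lost their call with the arrays of low Xist and 27 with those of high Xist, and none changed sign.

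The difference of changes passed the threshold in 861 of 17478 genes (4.93%), with 392 genes (2.24%) moving toward Purkinje cells and 469 (2.68%) toward Stellate/Basket cells. A gene was called where limma's Benjamini-Hochberg adjusted p was under 0.05 and the log2 difference was at least 1 in size. Most of the called genes with a called change in a cell type had it in Stellate/Basket cells. Among the 392 genes, the Stellate/Basket change alone was called in 178, the Purkinje change alone in 53, both in opposite directions in 1 and neither in 160. Among the 469 genes, the corresponding numbers were 323, 31, 2 and 113. Of 91 named genes called in the difference, 67 had more than 1 probe set. Among these, 29 had another probe set called the same way, 38 had none, among them Pdxdc1, which had one called the opposite way. A gene with neither change called is one whose 2 changes each fell short of the threshold while their difference passed it.

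Each cell type's own change showed the same imbalance. From P14 to P28, 910 genes (5.21%) changed in Stellate/Basket cells, 502 up (2.87%) and 408 down (2.33%). In Purkinje cells 215 genes (1.23%) changed over the same interval, 102 up (0.584%) and 113 down (0.647%). With the mean of the 12 glial markers as a covariate, 390 genes were called in Stellate/Basket cells, of which 198 (21.8%) were among the 910, and 172 in Purkinje cells. In Stellate/Basket arrays this mean separated P14 from P28 without overlap, so that fits with it cannot tell the glial level from age. The count in Purkinje cells fell to 103, 135 and 82 without P14 replicates 1, 2 and 3 in turn. The median change over all genes was -0.01 in both cell types and the median difference of changes was 0.01. GCRMA normalizes between arrays, so these medians do not show a lack of change.

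Restricting Purkinje cells at P28 to the 2 arrays of low Xist gave 1147 genes in the difference of changes (663 toward Purkinje cells, 484 toward Stellate/Basket cells). The 2 arrays of high Xist gave 733 genes (290 and 443), and the low and high sets held 680 and 574 of the 861 genes. With the mean of the 12 glial markers as a covariate, 527 genes were called, of which 274 (31.8%) were among the 861. On the X chromosome lay 35 of the 861 genes (4.07%), against 3.26% of all genes tested, and 1 was on the Y chromosome, Eif2s3y.

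**Figure D2:**
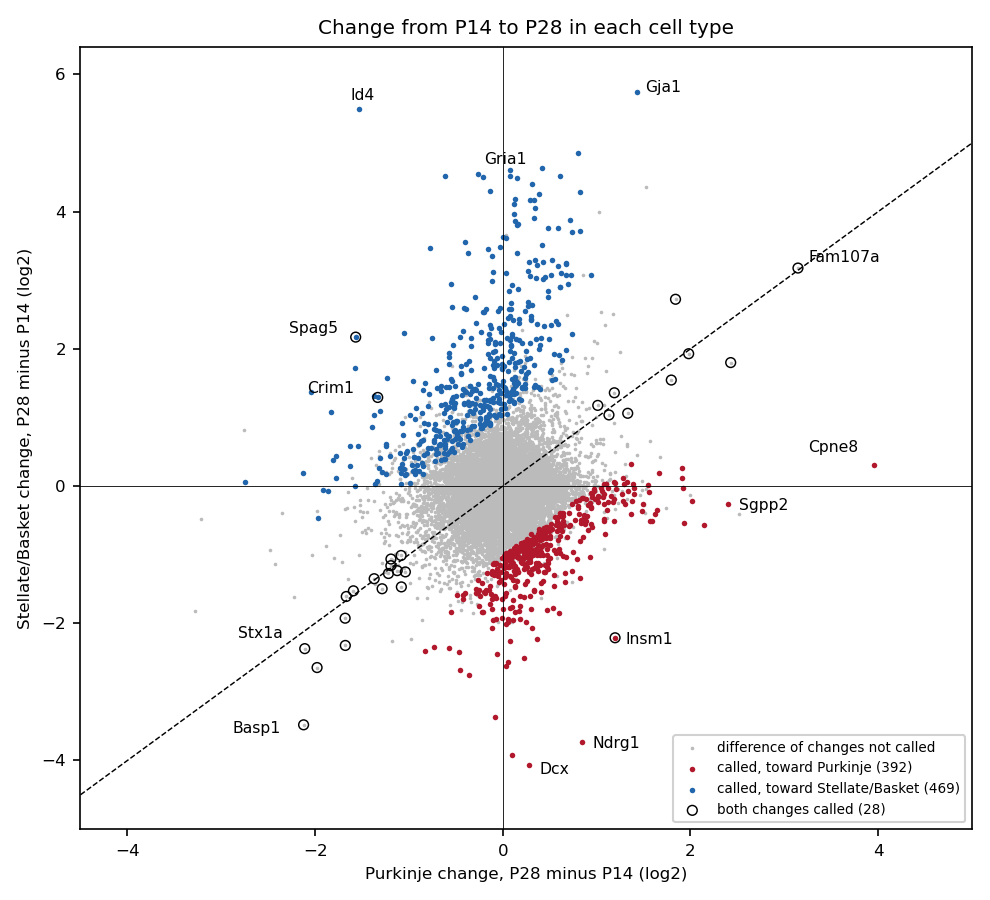
Change from P14 to P28 in Purkinje cells (horizontal axis, log2) against the change in Stellate/Basket cells (vertical axis, log2), 1 point per gene, with the line of equal change dashed. The 392 genes called toward Purkinje cells (red) and the 469 called toward Stellate/Basket cells (blue) stretch mainly along the vertical axis, and the 28 genes with both changes called are ringed.

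The genes that moved most toward Purkinje cells were mostly genes that fell in Stellate/Basket cells. Dcx, which encodes doublecortin, a microtubule-binding protein of migrating and newly formed neurons, was 11.16, 11.18, 11.74 and 11.17 in Stellate/Basket cells at P14 and 7.45, 7.85, 7.56 and 6.11 at P28. In Purkinje cells it was 5.77 to 5.87 at P14 and 5.99 to 6.20 at P28. The Stellate/Basket groups were thus far apart while all Purkinje arrays stayed within a narrow low band, and the difference of changes was 4.35 ± 0.39 (SE, adjusted p = 1.01e-08). Glra2, the glycine receptor alpha 2 subunit typical of immature neurons, was 8.06, 8.50, 8.71 and 8.89 in Stellate/Basket cells at P14 and 4.62, 4.64, 4.76 and 4.45 at P28. Purkinje arrays held it at 4.27 to 4.37 at P14 and 4.35 to 4.57 at P28, and its difference of changes was 4.02 ± 0.39 (SE, adjusted p = 2.84e-08). By P28 the Stellate/Basket level of Glra2 had come down to just above that of the Purkinje arrays.

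Rbfox3, the splicing regulator known as the neuronal antigen NeuN, is a marker of granule cells and of many other neurons. It was 11.31, 11.68, 11.94 and 11.80 in Stellate/Basket cells at P14 and 9.33, 9.06, 9.52 and 8.80 at P28. Purkinje arrays lay at 8.37 to 8.50 at P14 and 8.36 to 8.94 at P28, with the ages overlapping, and the difference of changes was 2.73 ± 0.45 (SE, adjusted p = 0.000165). The largest value of all in this direction was that of Ndrg1, at 4.57 ± 0.54 (SE, adjusted p = 1.01e-06), which went from 9.61 to 11.08 down to 6.26 to 7.17 in Stellate/Basket cells. Its Purkinje arrays overlapped between ages, at 6.26 to 6.30 and at 6.18 to 8.01. Ly6d, a membrane protein of the Ly6 family, fell by 3.36 in Stellate/Basket cells with a Purkinje change of -0.08. Nt5dc2, which encodes a protein with a nucleotidase domain, fell by 2.63 with a Purkinje change of 0.04.

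A smaller number of genes reached the top of this list through a rise in Purkinje cells. Cpne8, a copine that binds membranes in the presence of calcium, was 5.44, 5.51 and 5.37 in Purkinje cells at P14 and 9.85, 9.31, 9.29 and 9.14 at P28. Its Stellate/Basket arrays overlapped between ages, at 5.26 to 5.50 and at 5.30 to 5.88, and the difference of changes was 3.65 ± 0.82 (SE, adjusted p = 0.00493). The rise in this probe set of Cpne8 was present in all 4 Purkinje arrays at P28, and the difference was 3.83 with the arrays of low Xist and 3.47 with those of high Xist. The other 2 probe sets of Cpne8 did not show it, with Purkinje changes of -0.84 and 0.37 that were not called. In the probe set used, Purkinje arrays were at 8.72 to 9.17 at P21 and at 8.03, 7.60, 5.25 and 5.23 at P35. Sgpp2, a phosphatase of sphingosine 1-phosphate, was 8.08, 8.51 and 7.74 in Purkinje cells at P14 and 10.91, 10.10, 10.68 and 10.35 at P28. Sgpp2 was 9.24 to 9.70 and 8.90 to 9.41 in Stellate/Basket cells, and its difference of changes was 2.67 ± 0.40 (SE, adjusted p = 3.94e-05). Pdxdc1 also passed, at 2.71 ± 0.44 (SE), but another of its probe sets was called the other way, at -2.57 ± 0.68 (SE), so that no direction is given for this gene.

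Toward Stellate/Basket cells, Id4 had the largest difference of all genes. Id proteins lack a DNA-binding domain and hold back basic helix-loop-helix transcription factors. Id4 was 5.31, 5.71, 9.04 and 6.68 in Stellate/Basket cells at P14 and 12.27, 12.21, 12.17 and 12.11 at P28. In Purkinje cells it was 12.32, 12.18 and 12.20 at P14 and 10.29, 10.59, 11.03 and 10.87 at P28. The ages were separate in both cell types and ran in opposite directions, with a Stellate/Basket change of 5.50 ± 0.47 (SE, adjusted p = 2.77e-10) and a Purkinje change of -1.54 that missed the threshold (adjusted p = 0.064). The difference of changes was -7.04 ± 0.69 (SE, adjusted p = 3.2e-08), and the other 2 probe sets of Id4 were called in the same direction. The glial marker mean rose in the same Stellate/Basket arrays. At P14, replicates 3 and 4 had the highest Id4 and also the highest glial mean (7.84 and 7.52). The part of the glial level in the Stellate/Basket change of Id4 was not tested. Id2, a second member of the family, had a difference of changes of -3.96 ± 0.39 (SE, adjusted p = 4e-08) and was 5.56 to 6.55 in Stellate/Basket cells at P14 and 9.06 to 9.73 at P28.

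The promoters of Id4 and Id2, which moved toward Stellate/Basket cells, and of Dcx and Marcksl1, which moved toward Purkinje cells, are printed here because each pair moved together. They come from RefSeq (GRCm38.p6) and run from 250 bases before to 50 bases after the annotated start of transcription, read 5′ to 3′ along the gene. Capitals mark every match, on either strand, of 4 short motifs, and overlapping matches were allowed. The motifs were TATAAA, the letters of the TATA box, with CCAAT, the CCAAT box. The others were GGGCGG, the GC box, and CACGTG, the E-box that reads the same on both strands. Id4 lies on chr13:48260866-48261165 (+ strand), Id2 on chr12:25096043-25096342 (- strand), Dcx on chrX:143933170-143933469 (- strand, the first of 2 listed) and Marcksl1 on chr4:129513331-129513630 (+ strand).
Id4: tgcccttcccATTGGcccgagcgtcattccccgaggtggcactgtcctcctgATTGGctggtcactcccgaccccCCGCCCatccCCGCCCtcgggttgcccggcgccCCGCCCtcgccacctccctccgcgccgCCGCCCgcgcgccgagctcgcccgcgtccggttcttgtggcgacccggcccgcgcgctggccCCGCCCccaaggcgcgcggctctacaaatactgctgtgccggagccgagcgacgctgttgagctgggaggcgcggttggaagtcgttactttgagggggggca
Id2: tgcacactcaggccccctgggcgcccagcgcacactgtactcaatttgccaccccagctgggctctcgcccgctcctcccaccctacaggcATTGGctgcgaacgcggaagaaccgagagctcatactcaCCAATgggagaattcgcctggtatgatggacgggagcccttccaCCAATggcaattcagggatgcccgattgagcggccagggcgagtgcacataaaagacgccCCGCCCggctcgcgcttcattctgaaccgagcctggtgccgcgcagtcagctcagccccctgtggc
Dcx: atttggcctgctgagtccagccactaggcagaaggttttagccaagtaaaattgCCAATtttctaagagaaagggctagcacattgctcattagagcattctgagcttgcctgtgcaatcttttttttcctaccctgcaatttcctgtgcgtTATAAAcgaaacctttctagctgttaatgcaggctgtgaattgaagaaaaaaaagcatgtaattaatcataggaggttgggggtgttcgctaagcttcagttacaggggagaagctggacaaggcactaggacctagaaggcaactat
Marcksl1: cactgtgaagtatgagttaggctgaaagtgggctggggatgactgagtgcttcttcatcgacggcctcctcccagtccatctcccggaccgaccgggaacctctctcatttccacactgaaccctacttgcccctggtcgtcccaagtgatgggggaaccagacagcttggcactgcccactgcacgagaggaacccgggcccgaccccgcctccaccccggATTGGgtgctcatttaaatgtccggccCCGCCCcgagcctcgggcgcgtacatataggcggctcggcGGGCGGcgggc
Of 32851 promoters of 300 bases, 35.7% held GGGCGG, 37.4% CCAAT, 13.6% TATAAA and 7.15% CACGTG. Id4 had 5 matches of GGGCGG and 2 of CCAAT, and Id2 had 1 and 3. Dcx had 1 match of TATAAA and 1 of CCAAT, and Marcksl1 had 2 matches of GGGCGG and 1 of CCAAT. These letters are a description of the windows, and no binding was measured.

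Most of the other leading genes in this direction rose in Stellate/Basket cells with little movement in Purkinje cells. Gria1, an AMPA receptor subunit, was 7.11, 6.24, 7.28 and 8.61 in Stellate/Basket cells at P14 and at least 11.75 in all 4 arrays at P28. Its Purkinje arrays overlapped between ages, at 10.58 to 11.20 and at 10.06 to 11.35. The difference of changes was -4.80 ± 0.54 (SE, adjusted p = 3.32e-07), and the second probe set of Gria1 was called in the same direction. Clmn was 4.80 to 7.69 in Stellate/Basket cells at P14 and 10.54 to 10.70 at P28, with a difference of -4.71 ± 0.62 (SE, adjusted p = 5.3e-06), and stayed between 11.15 and 11.69 in all Purkinje arrays. Nrk, a kinase that was 12.67 to 12.89 in Purkinje cells at P14 and 11.69 to 12.11 at P28, rose from 4.60 to 6.13 up to 8.33 to 9.46 in Stellate/Basket cells. Clmn and Nrk were thus highest in Purkinje cells at both ages, while Gria1 at P28 was higher in every Stellate/Basket array than in any Purkinje array. The Purkinje marker mean also rose in these Stellate/Basket arrays. At P14, replicates 1 and 2 had the highest Clmn, the highest Nrk and the highest Purkinje marker mean (8.81 and 8.51). The part of that mean's rise in the changes of Clmn and Nrk was not tested.

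A second set of leading genes was low in Purkinje cells at both ages. Wif1, a secreted inhibitor of Wnt ligands, was 4.14 to 4.54 in Stellate/Basket cells at P14 and 8.43 to 9.39 at P28, and 4.25 to 4.58 in all Purkinje arrays. Itgb8, an integrin subunit, was 4.21 to 5.30 at P14 and 8.95 to 9.43 at P28 in Stellate/Basket cells and 4.30 to 4.68 in all Purkinje arrays. Their differences of changes were -4.52 ± 0.65 (SE, adjusted p = 2.29e-05) and -4.43 ± 0.71 (SE, adjusted p = 9.61e-05). Aqp4, the water channel of astrocytes, was 5.23 to 7.03 at P14 and 10.36 to 10.62 at P28 in Stellate/Basket cells, and its difference was -4.34 ± 0.70 (SE, adjusted p = 0.000102). Gja1, the astrocyte gap junction protein connexin 43, was 5.29, 4.96, 9.25 and 7.23 at P14 and 12.28 to 12.55 at P28, and its difference of -4.31 ± 1.40 (SE, adjusted p = 0.0472) was just past the threshold. With the Purkinje arrays of low Xist it was -3.28 and not called. Of these genes, Aqp4 and Gja1 are on the glial marker list whose mean rose in the same arrays. With that mean as a covariate, the difference was 0.03 for Aqp4 and 4.12 for Gja1. The mean includes both genes, and its Stellate/Basket ranges at P14 and P28 do not overlap. These values therefore cannot tell the glial level from age. Wif1 and Itgb8 are not on the list but rose in the same arrays, and the part of the glial level in their rise was not tested.

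Ctnna1, the alpha catenin that links cadherins to actin, and Selenop, a secreted carrier of selenium, complete the leading genes. Ctnna1 was 4.98, 5.12, 6.64 and 5.13 in Stellate/Basket cells at P14 and 9.84 to 10.25 at P28, with a difference of -5.14 ± 0.88 (SE, adjusted p = 0.000216). Selenop was 6.95 to 8.91 at P14 and 12.20 to 12.30 at P28, with a difference of -4.44 ± 0.73 (SE, adjusted p = 0.000125). Purkinje arrays held Ctnna1 at 7.36 or lower at both ages, and Selenop between 8.61 and 10.21. Both genes rose in the Stellate/Basket arrays in which the glial marker mean rose. At P14, Ctnna1 was highest in replicate 3, which also had the highest glial mean (7.84). The part of the glial level in these changes was not tested.

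**Figure D3:**
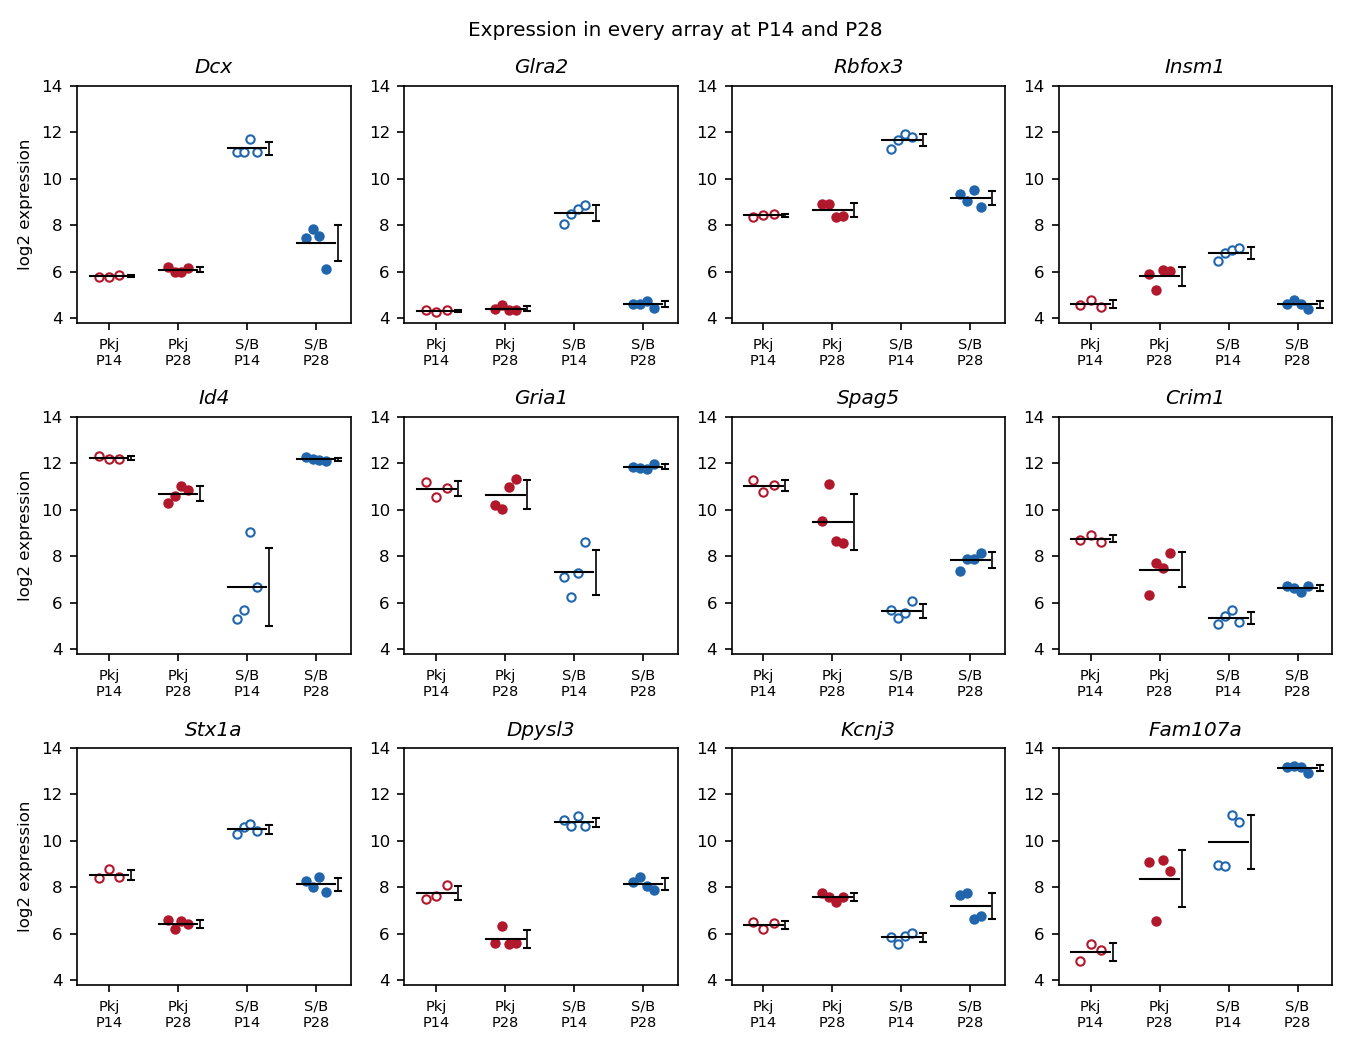
Log2 expression of 12 genes in every array of Purkinje (Pkj, red) and Stellate/Basket (S/B, blue) cells at P14 (open circles) and P28 (filled circles), with the mean as a line and the SD as a bar. Dcx, Glra2 and Rbfox3 fall in Stellate/Basket cells, Id4 and Gria1 rise there, and Stx1a and Dpysl3 fall in both cell types.

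Only 3 genes had called changes in opposite directions. Insm1, a zinc-finger transcription factor of developing neurons and endocrine cells, was 4.56, 4.80 and 4.50 in Purkinje cells at P14 and 5.91, 5.22, 6.10 and 6.03 at P28. The Stellate/Basket arrays had 6.46, 6.80, 6.96 and 7.04 at P14 and 4.63, 4.79, 4.60 and 4.38 at P28. The ages did not overlap in either cell type, so that the order of the cell types was reversed at P28, with a difference of changes of 3.41 ± 0.46 (SE, adjusted p = 7.63e-06). The Purkinje rise of 1.20 was called with all arrays (adjusted p = 0.03) and was 0.95, not called, with the 2 arrays of low Xist. The second probe set of Insm1 had a difference of 0.21 that was not called. At the neighbouring ages, Purkinje arrays held Insm1 at 5.83, 4.58, 4.40 and 4.73 (P21) and at 5.83, 6.04, 4.63 and 4.71 (P35). Some of these arrays were thus at the P14 level.

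Spag5 and Crim1 moved the other way. Spag5, which encodes the spindle protein astrin, was 11.29, 10.79 and 11.06 in Purkinje cells at P14 and 9.53, 11.14, 8.67 and 8.58 at P28. The Purkinje ages overlapped through 1 P28 array, and the change of -1.57 (adjusted p = 0.017) was -0.71 with the arrays of low Xist, where it was not called, and -2.42 with those of high Xist. In Stellate/Basket cells Spag5 was 5.36 to 6.06 at P14 and 7.37 to 8.17 at P28, and the difference of changes was -3.74 ± 0.54 (SE, adjusted p = 2.45e-05). The other 2 probe sets of Spag5 had differences of -3.39, called, and 0.08, not called. Crim1, a membrane protein that binds bone morphogenetic proteins, was 8.72, 8.93 and 8.64 in Purkinje cells at P14 and 6.35, 7.70, 7.52 and 8.15 at P28. It was 5.10 to 5.69 in Stellate/Basket cells at P14 and 6.46 to 6.74 at P28, and its difference was -2.62 ± 0.49 (SE, adjusted p = 0.000622), against -0.79 and no call in its other probe set. The Purkinje change of Crim1, -1.33 (adjusted p = 0.024), was -0.93 and not called with the arrays of high Xist. Purkinje arrays held Crim1 at 6.19, 8.29, 8.11 and 8.38 at P21 and at 8.02 to 8.87 at P35. They held Spag5 at 10.54 to 11.17 at P21 and at 9.56 to 10.62 at P35.

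Shared changes were counted in the same way. In both cell types 9 genes rose, which is 8.82% of the Purkinje list and 1.79% of the Stellate/Basket list, where 2.87% and 0.584% of all genes rose in Stellate/Basket and in Purkinje cells. Falls were shared by 16 genes, 14.2% of the Purkinje list and 3.92% of the Stellate/Basket list, where 2.33% and 0.647% of all genes fell. These 2 changes share no array. The direction was the same in 59.5% of the 215 genes called in Purkinje cells, in 61.8% of the 910 called in Stellate/Basket cells and in 51.6% of all genes, and the 2 changes had a Pearson r of 0.126 and a Spearman rho of 0.080 across genes. Genes are not independent of each other, so no p is given. With the glial marker mean as a covariate, 0 rises and 2 falls were shared by limma's calls and 2 genes were opposite, and with array weights the numbers were 17, 44 and 18. With the Purkinje arrays of low Xist, 9 rises and 11 falls were shared and 6 genes were opposite. With those of high Xist, the numbers were 3, 27 and 8. Without 1 Purkinje array at a time, shared rises numbered 3 to 11, shared falls 5 to 19 and opposite genes 0 to 8, and the lowest numbers of rises and falls came without P14 replicate 3.

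Of the 16 shared falls, the 6 of largest size are described. Stx1a, the syntaxin of the SNARE complex that fuses synaptic vesicles, was 8.39, 8.79 and 8.46 in Purkinje cells at P14 and 6.61, 6.19, 6.54 and 6.41 at P28. Stellate/Basket arrays held it at 10.28, 10.58, 10.72 and 10.44 at P14 and 8.27, 8.01, 8.44 and 7.82 at P28. The falls of 2.11 and 2.37 on the log2 scale were close to each other, with a difference of changes of 0.26 ± 0.40 (SE, adjusted p = 0.735), and the Purkinje fall was called with the low and with the high Xist arrays alike. The other probe set of Stx1a did not show the Purkinje fall, with changes of 0.26 and -0.69 in Purkinje and Stellate/Basket cells. Dpysl3, a collapsin response mediator of growth cones, was 7.52, 7.64 and 8.09 in Purkinje cells at P14 and 5.59, 6.34, 5.55 and 5.61 at P28. It was 10.63 to 11.05 and 7.88 to 8.46 in Stellate/Basket cells, and again no array of P28 reached the P14 range in either cell type.

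Basp1, a membrane-bound growth-cone protein, fell by 2.12 in Purkinje cells and by 3.48 in Stellate/Basket cells. Its Purkinje arrays at P28 were uneven, at 8.02, 11.02, 8.94 and 8.67 against 11.23 to 11.36 at P14, with replicate 2 close to the P14 level. Uchl1, a deubiquitinating enzyme abundant in neurons, fell by 1.68 and 1.93. Socs2, an inhibitor of cytokine signalling, fell by 1.68 and 2.32, and Galnt2, an enzyme that starts O-linked glycosylation, fell by 1.67 and 1.61. The Purkinje falls of Uchl1, Socs2 and Galnt2 were -1.07, -1.58 and -1.67 with the arrays of low Xist, and none of the 3 was called there. With those of high Xist, limma did not call the fall of Galnt2 either (-1.66, adjusted p = 0.0976). At P35, Purkinje arrays held Socs2 at 7.41, 6.77, 8.25 and 7.85 and Galnt2 at 6.94, 6.90, 9.12 and 8.21. Their P14 arrays were at 8.26 to 8.76 and at 7.94 to 8.48.

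The shared rises included a potassium channel and membrane proteins. Kcnj3, the GIRK1 subunit of the potassium channels that GABA-B receptors open, was 6.51, 6.19 and 6.47 in Purkinje cells at P14 and 7.77, 7.61, 7.35 and 7.59 at P28. Stellate/Basket arrays held it at 5.87, 5.57, 5.91 and 6.06 at P14 and 7.65, 7.75, 6.66 and 6.78 at P28. The rises of 1.19 and 1.36 left a difference of -0.17 ± 0.42 (SE, adjusted p = 0.84). At the neighbouring ages, Stellate/Basket arrays held Kcnj3 at 4.38, 6.48 and 5.95 (P21) and at 6.07 and 6.12 (P35), all below their P28 range. Purkinje arrays held Kcnj3 at 6.54 to 7.04 (P21) and at 6.98 to 7.43 (P35). Ddo, the oxidase of D-aspartate, rose by 1.80 and 1.55, and Etl4 rose by 2.43 and 1.80. The Purkinje rises of Kcnj3, Ddo and Etl4 were 1.08, 1.28 and 1.82 with the arrays of high Xist, where none of the 3 was called.

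Fam107a, Gpm6b and Itgav rose by 3.15, 1.98 and 1.84 in Purkinje cells and by 3.18, 1.93 and 2.72 in Stellate/Basket cells. Fam107a is an actin-associated gene induced by stress, Gpm6b a proteolipid of neurons and glia, and Itgav an integrin subunit. Gpm6b was 8.69, 6.38, 9.49 and 9.78 in Purkinje cells at P28 and 6.42 to 6.82 at P14, so that the ages overlapped through 1 array. The Purkinje changes of the 3 genes were 2.58, 0.93 and 0.74 with the arrays of low Xist, where none was called. Another probe set of Gpm6b was called toward Stellate/Basket cells, with a difference of changes of -2.74 ± 0.64 (SE). Both other probe sets of Fam107a were also called toward Stellate/Basket cells, with differences of -2.28 and -2.06 and Purkinje changes of 1.06 and 0.10, so that neither shows a shared rise. Fam107a was not called in Purkinje cells with the arrays of high Xist either (3.71, adjusted p = 0.0515). With the glial marker mean as a covariate, the Stellate/Basket changes of Fam107a and Gpm6b were -4.91 and -1.72. That mean separated P14 from P28 in these arrays, so the fit cannot tell the glial level from age.

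Genes of the inhibitory synapse were taken from lists of transmitter, receptor and scaffold genes. The counts of these and all later lists stand against 2.24% of all genes called toward Purkinje and 2.68% toward Stellate/Basket cells. An unadjusted p under 0.05 in the difference of changes was found by limma in 4370 of all 17478 genes. Of 6 genes for GABA synthesis, packaging and uptake, 0 were called by limma in the difference of changes and 2 had an unadjusted p under 0.05. The median difference of this list was -0.08. Among 9 GABA-A receptor subunits, 1 moved toward Purkinje cells and 3 toward Stellate/Basket cells, against 4.93% of all genes called in either direction, and the median was -0.02. Gabra2, the alpha 2 subunit typical of early synapses, was at least 8.76 in every Stellate/Basket array at P14 and 6.61 to 8.01 at P28, with a difference of 2.28 ± 0.54 (SE, adjusted p = 0.00676). Gabrb1, Gabrg1 and Gabra4 rose in Stellate/Basket cells, the latter pair by 2.05 and 1.43, with differences of -2.29, -1.96 and -1.19. Gabrb1 and Gabrg1 are also expressed by astrocytes, and the glial marker mean rose in the same arrays. With that mean as a covariate, the difference of Gabrb1 was 0.50 and not called. Gabrg1 and Gabra4 lost their call with the arrays of high Xist.

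Postsynaptic scaffold genes numbered 9, of which 1 was called, Dmd (dystrophin, part of the complex at inhibitory synapses on Purkinje cells), which lost the call with the arrays of low Xist. It was 6.94 to 7.65 in Stellate/Basket cells at P14 and 8.19 to 9.13 at P28, with a difference of -1.30 ± 0.39 (SE, adjusted p = 0.0315), while Purkinje arrays stayed between 8.95 and 9.68. Of 4 glycine receptor genes, Glra2 alone was called. Of 6 GABA-B receptor and GIRK genes, 0 were called by limma in the difference and 1 had an unadjusted p under 0.05, and Kcnj3 is the shared rise described above. Of 6 chloride transporters and channels, 0 were called and 0 had an unadjusted p under 0.05.

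Glutamate receptors changed in single members. Besides Gria1, 1 of 10 AMPA receptor genes was called, the auxiliary subunit Cacng2 (stargazin), which went from 11.73 to 12.13 down to 10.53 to 10.92 in Stellate/Basket cells, for a difference of 1.36 ± 0.26 (SE, adjusted p = 0.000951). Gria1 and Cacng2, a channel subunit and a partner that carries such subunits to the synapse, thus moved in opposite directions in the same arrays. The arrays are pools, so the values do not show whether the same cells changed in both genes. Of 7 kainate receptor genes, 1 was called. Neto2, an auxiliary subunit of these receptors, fell in Purkinje cells, from 9.32 to 10.04 down to 8.33 to 9.19, with a difference of -1.81 ± 0.45 (SE, adjusted p = 0.01). Grin3a, an NMDA receptor subunit of young neurons, was 9.08 to 10.32 in Stellate/Basket cells at P14 and 8.51 to 9.16 at P28, with overlapping ages and a difference of 1.49 ± 0.40 (SE, adjusted p = 0.0185) that was 1.22 and not called with the arrays of high Xist. It was the 1 called gene of 5 NMDA receptor subunits. Of 6 cerebellin, neurexin and delta receptor genes, 0 were called by limma and 1 had an unadjusted p under 0.05.

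Voltage-gated calcium channels were the ion channel list with the most calls. Of 12 subunits, 4 moved toward Purkinje cells and 1 toward Stellate/Basket cells, against 2.24% and 2.68% of all genes. The list had a median difference of 0.20 and a median Stellate/Basket change of -0.56. Cacna1e, the R-type pore subunit, was 10.42, 10.65, 10.81 and 10.64 in Stellate/Basket cells at P14 and 8.10, 8.57, 8.79 and 9.01 at P28. Purkinje arrays held it between 5.54 and 5.95, and the difference was 2.05 ± 0.34 (SE, adjusted p = 0.000168). Cacna1b, the N-type pore subunit, and Cacna1c, an L-type pore subunit, had differences of 1.41 ± 0.22 (SE, adjusted p = 7.45e-05) and 1.42 ± 0.37 (SE, adjusted p = 0.0144). Cacnb4, an auxiliary beta subunit, went the other way, from 8.23 to 9.16 up to 9.60 to 9.93 in Stellate/Basket cells, for a difference of -1.27 ± 0.34 (SE, adjusted p = 0.0163). Thus 3 pore subunits fell and a beta subunit rose in Stellate/Basket cells, with Purkinje changes between -0.05 and 0.25 for these 4 genes.

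Sodium channel genes moved in both directions. Of 10 subunits, Scn3b and Scn3a, both known from developing brain, moved toward Purkinje cells by 2.37 ± 0.38 (SE, adjusted p = 8.57e-05) and 1.62 ± 0.42 (SE, adjusted p = 0.0147). Scn4b, the subunit linked to resurgent current, moved toward Stellate/Basket cells by -1.89 ± 0.40 (SE, adjusted p = 0.00286) and was 5.19 to 5.90 at P14 and 7.10 to 8.12 at P28 in those cells. Scn2b was called at -1.43 ± 0.44 (SE, adjusted p = 0.0389) but not with the arrays of low Xist, and its sign turned to 0.92 when the probe set of highest variance was taken. Of 23 potassium channel genes, 1 was called toward Purkinje cells and 2 toward Stellate/Basket cells. Kcnq3, a subunit of the M current, had a difference of 1.60 ± 0.35 (SE, adjusted p = 0.00351). Kcnc1, the fast-spiking Kv3.1 channel, fell in Purkinje cells from 10.16 to 10.36 down to 8.40 to 9.46, with a difference of -1.59 ± 0.40 (SE, adjusted p = 0.0109) that was -1.12 and not called with the arrays of high Xist. At P35, Purkinje arrays held Kcnc1 at 9.93, 9.43, 10.68 and 10.41. Kcnj10, the potassium channel Kir4.1 of astrocytes, had a difference of -3.84 ± 0.57 (SE, adjusted p = 3.26e-05) and rose in the same arrays as the glial markers.

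Calcium signalling genes were taken as 3 lists. Among 12 genes of the mGluR1, IP3 receptor and protein kinase C pathway, Car8 and Prkcd were called. Prkcd, the delta isoform of protein kinase C, fell in Purkinje cells, from 10.33 to 10.53 down to 6.87, 9.52, 8.44 and 8.53, and its difference was -2.32 ± 0.71 (SE, adjusted p = 0.0353), or -2.18 and not called with the arrays of high Xist. At P35, Purkinje arrays held Prkcd at 8.53, 8.76, 10.52 and 10.02. Car8, an inhibitor of the IP3 receptor that is abundant in Purkinje cells, was 9.99, 9.37, 7.28 and 7.47 in Stellate/Basket cells at P14 and 12.40 to 12.58 at P28. Its difference was -3.85 ± 0.96 (SE, adjusted p = 0.0105), with Purkinje arrays between 13.14 and 13.57. Of 7 calcium-binding protein genes, S100b and Hpcal1 were called, at -2.56 ± 0.48 (SE, adjusted p = 0.000745) and -1.33 ± 0.28 (SE, adjusted p = 0.00263). Of 10 ryanodine receptor and calcium store genes, 0 were called by limma and 1 had an unadjusted p under 0.05. S100b is a marker of glia and Hpcal1 a sensor of the visinin family, and both rose in Stellate/Basket cells.

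Car8 was 1 of the Purkinje markers that rose in Stellate/Basket arrays. Of the 8 tested, 4 were called in the difference of changes, namely Car8, Ppp1r17 at -2.77, Slc1a6 at -2.58 and Pcp2 at -2.47. Ppp1r17 is a substrate of cGMP-dependent kinase, Slc1a6 the Purkinje glutamate transporter and Pcp2 a G protein modulator, and all are known for their abundance in Purkinje cells. Calb1, the calcium buffer calbindin, was 8.79, 8.19, 5.55 and 5.94 in Stellate/Basket cells at P14 and 10.55 to 11.09 at P28, with a difference of -3.62 that was not called (adjusted p = 0.0696). Another of its probe sets was called, with a difference of -3.63 ± 0.61 (SE) and a Stellate/Basket change of 3.42. At P14 the replicates 3 and 4 thus had the lowest Calb1 and, as given above for Gja1, the highest glial values. In Purkinje cells the changes of these 5 genes lay between -0.53 and 0.12. Among 9 interneuron markers, Gjd2, the neuronal gap junction protein connexin 36, was called at 1.99 ± 0.45 (SE, adjusted p = 0.00511), after falling from 10.10 to 10.59 down to 7.84 to 8.85 in Stellate/Basket cells. Kit, the receptor that marks these interneurons, had a Stellate/Basket change of 0.29 that was not called. Of the 9 interneuron markers, 3 were called as falling in Stellate/Basket cells and 0 as rising, and their median change was 0.04.

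Kitl, the ligand of Kit that Purkinje cells make, is 1 of 3 called genes among 10 neurotrophin and Kit ligand genes. It stayed between 11.66 and 12.11 in all Purkinje arrays and rose from 6.06 to 7.99 up to 8.92 to 9.70 in Stellate/Basket cells, for a difference of -2.32 ± 0.63 (SE, adjusted p = 0.0181) that missed the threshold with the arrays of high Xist (adjusted p = 0.0518). Ntrk3 and Ntrk2, the receptors of neurotrophin 3 and of brain-derived neurotrophic factor, had differences of -2.67 ± 0.48 (SE, adjusted p = 0.000447) and -1.53 ± 0.29 (SE, adjusted p = 0.000846). For Ntrk2 the probe set of highest variance gave 0.17. Both the Purkinje and the glial marker means rose in the arrays in which these 3 genes rose.

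Of 24 synaptic vesicle and release genes, 1 was called in each direction in the difference of changes, while 12 had an unadjusted p under 0.05, against 4370 of all 17478 genes. The median difference of the list was 0.16, and 3 fell in Purkinje cells, Stx1a among them. Syt2, a fast calcium sensor for release, had a difference of 1.08 ± 0.27 (SE, adjusted p = 0.0116), which was -0.04 with the probe set of highest variance. Doc2b, a high-affinity calcium sensor, rose from 5.35 to 6.24 up to 7.04 to 7.81 in Stellate/Basket cells, for a difference of -1.92 ± 0.47 (SE, adjusted p = 0.00939). Of 7 endocannabinoid genes, 0 were called by limma and 0 had an unadjusted p under 0.05, and Cnr1, the presynaptic receptor of these interneurons, had a difference of -0.71 ± 0.60 (SE). Of the 2 HCN pacemaker genes tested, Hcn2 and Hcn3, 0 were called and 0 had an unadjusted p under 0.05.

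Neurite growth and immature neuron genes had the largest median difference of any functional list, at 0.998 against 0.01 over all genes. Of 21 genes, 6 moved toward Purkinje cells and 0 toward Stellate/Basket cells, against 2.24% and 2.68% of all genes. In this list 14 had an unadjusted p under 0.05, against 4370 of all 17478 genes. Of the 21, 11 fell in Stellate/Basket cells, with a median change of -1.43. Purkinje cells had a median of -0.22 and 3 falls. Gap43, a growth-cone protein, was 11.23, 11.27, 11.33 and 10.84 in Stellate/Basket cells at P14 and 9.21, 8.82, 8.68 and 8.91 at P28, against 5.45 to 5.87 in all Purkinje arrays. Its difference of changes was 2.34 ± 0.25 (SE, adjusted p = 1.64e-07). Marcksl1, which binds actin and calmodulin, and Cd24a, a surface protein of young neurons, had differences of 1.96 ± 0.52 (SE, adjusted p = 0.0154) and 1.94 ± 0.62 (SE, adjusted p = 0.0457). With the arrays of low Xist Cd24a was not called (adjusted p = 0.0812), and with those of high Xist neither Cd24a (0.0904) nor Marcksl1 (0.0507) was. With the glial marker mean as a covariate, 7 of the 21 genes were called toward Purkinje cells.

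Guidance and adhesion genes moved in both directions. Of 36 axon guidance genes, 4 moved toward Purkinje cells and 3 toward Stellate/Basket cells, with a median of 0.04. Sema6d, a transmembrane semaphorin, had a difference of -3.49 ± 0.36 (SE, adjusted p = 8.77e-08), going from 7.26 to 7.80 up to 10.06 to 10.82 in Stellate/Basket cells. Epha5 and Epha3, receptors of ephrin A ligands, had differences of -2.40 ± 0.59 (SE, adjusted p = 0.00914) and -1.42 ± 0.41 (SE, adjusted p = 0.0248). Neither was called with the arrays of low Xist, at -1.64 and -1.34. Epha3 fell in Purkinje cells, from 5.85 to 6.57 down to 4.55 to 5.37. Sema7a, a membrane-anchored semaphorin, rose in Purkinje cells from 9.07 to 9.95 up to 10.53 to 10.93, with a difference of 1.36 ± 0.42 (SE, adjusted p = 0.0359) that was 1.25 with the arrays of low and 1.48 with those of high Xist, called in neither.

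Among 17 genes of the L1 family, contactins and ankyrins, Ank2 and Cntn1 were called, at -2.07 ± 0.34 (SE, adjusted p = 0.000125) and -1.36 ± 0.44 (SE, adjusted p = 0.0479). Ank2, an ankyrin that holds membrane proteins to the spectrin skeleton, rose in Stellate/Basket cells from 8.28 to 9.30 up to 10.13 to 10.30. Cntn1, a contactin, fell in Purkinje cells, and its difference was -0.70 and not called with the arrays of high Xist. Of 18 cadherins and protocadherins, Cdh10 and Pcdh9 moved toward Stellate/Basket cells, by -2.49 ± 0.54 (SE, adjusted p = 0.0035) and -1.63 ± 0.30 (SE, adjusted p = 0.000638), and Cdh22 toward Purkinje cells by 1.50 ± 0.47 (SE, adjusted p = 0.0402), a call that was lost with the arrays of low Xist. Among 11 genes of the perineuronal net and matrix, the proteoglycan Ncan had a difference of 1.34 ± 0.28 (SE, adjusted p = 0.00263) and the matrix protein Tnc one of -1.19 ± 0.31 (SE, adjusted p = 0.015). Of 7 intermediate filament genes, the neurofilaments Nefm and Nefl moved toward Purkinje cells, by 2.09 ± 0.59 (SE, adjusted p = 0.0231) and 1.79 ± 0.41 (SE, adjusted p = 0.00553). Nefm lost its call with the arrays of low Xist (adjusted p = 0.0648) and Nefl with those of high Xist (adjusted p = 0.0515). Vim, the filament of glia and precursors, moved toward Stellate/Basket cells by -2.87 ± 0.53 (SE, adjusted p = 0.000634).

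Transcription regulators gave calls in 2 families. Among 11 Zic, NFI and Id genes, Nfix and Nfia moved toward Purkinje cells, and Id4 and Id2 toward Stellate/Basket cells. Nfix, a nuclear factor I protein of neuronal maturation, was 12.37 to 12.46 in Stellate/Basket cells at P14 and 10.98 to 11.38 at P28. It was 7.06 to 7.24 in Purkinje cells at P14 and 7.54 to 7.90 at P28, and its difference was 1.84 ± 0.24 (SE, adjusted p = 4.57e-06). Nfia had a difference of 1.20 ± 0.27 (SE, adjusted p = 0.00504). The gap in Nfix between the cell types thus narrowed from both sides, although neither the Purkinje change of 0.55 nor that of Nfia passed. Among 17 lineage factors, Lhx1, a LIM homeobox factor of Purkinje cells, was called at -1.57 ± 0.43 (SE, adjusted p = 0.0197) and lost the call with the arrays of high Xist.

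Immediate early genes are switched on by neuronal activity and by other stimuli. Of 18 immediate early genes, 2 were called in the difference, Nr4a1 at -2.06 ± 0.35 (SE, adjusted p = 0.000219) and Fos at -1.75 ± 0.56 (SE, adjusted p = 0.0448), and 4 rose in Stellate/Basket cells. With the arrays of low Xist, the difference of Fos was -1.36 and not called. Fos was 11.38 to 11.69 in Stellate/Basket cells at P14 and 12.96 to 13.02 at P28. Nr4a1, an orphan nuclear receptor, was 7.12 to 7.40 in Purkinje cells at P14 and 6.14 to 6.58 at P28, and 6.75 to 7.18 and 7.92 to 8.48 in Stellate/Basket cells, with no overlap between ages in either. Of 18 clock genes, Per1 was called, at -1.14 ± 0.35 (SE, adjusted p = 0.0351), and the median of the list was -0.33. Per1 lost its call with the arrays of low Xist (-1.17, adjusted p = 0.0527) and with those of high Xist (-1.12, adjusted p = 0.0876).

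Housekeeping lists differed in their medians. Of 17 cholesterol synthesis enzymes, 3 moved toward Purkinje cells and 6 fell in Stellate/Basket cells, with a median difference of 0.59. Dhcr7, the enzyme of the last step to cholesterol, was 8.19 to 8.97 in Stellate/Basket cells at P14 and 6.96 to 7.28 at P28, with a difference of 1.84 ± 0.29 (SE, adjusted p = 7.8e-05). Hsd17b7 and Mvd had differences of 1.30 ± 0.43 (SE, adjusted p = 0.0496) and 1.24 ± 0.33 (SE, adjusted p = 0.0162). With the arrays of low Xist 6 of the 17 were called, and with those of high Xist 1, without Hsd17b7 and Mvd. Of 16 cytosolic ribosomal protein genes, Rplp0, Rplp2 and Rps19 moved toward Purkinje cells, by 1.61, 1.49 and 1.24, and the list had a median difference of 0.59 and a median Stellate/Basket change of -0.86. Here 7 were called with the arrays of low Xist, and the 3 named genes lost their call with those of high Xist. Of 29 oxidative phosphorylation subunits, 0 were called and 4 had an unadjusted p under 0.05, with a median of 0.05. Of 12 chaperones, 0 were called and 1 had an unadjusted p under 0.05. Of 19 cell cycle genes, 1 was called, the cyclin-dependent kinase inhibitor Cdkn1a, at 1.86 ± 0.33 (SE, adjusted p = 0.000303), which went from 10.45 to 11.06 down to 8.86 to 9.22 in Stellate/Basket cells.

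**Figure D4:**
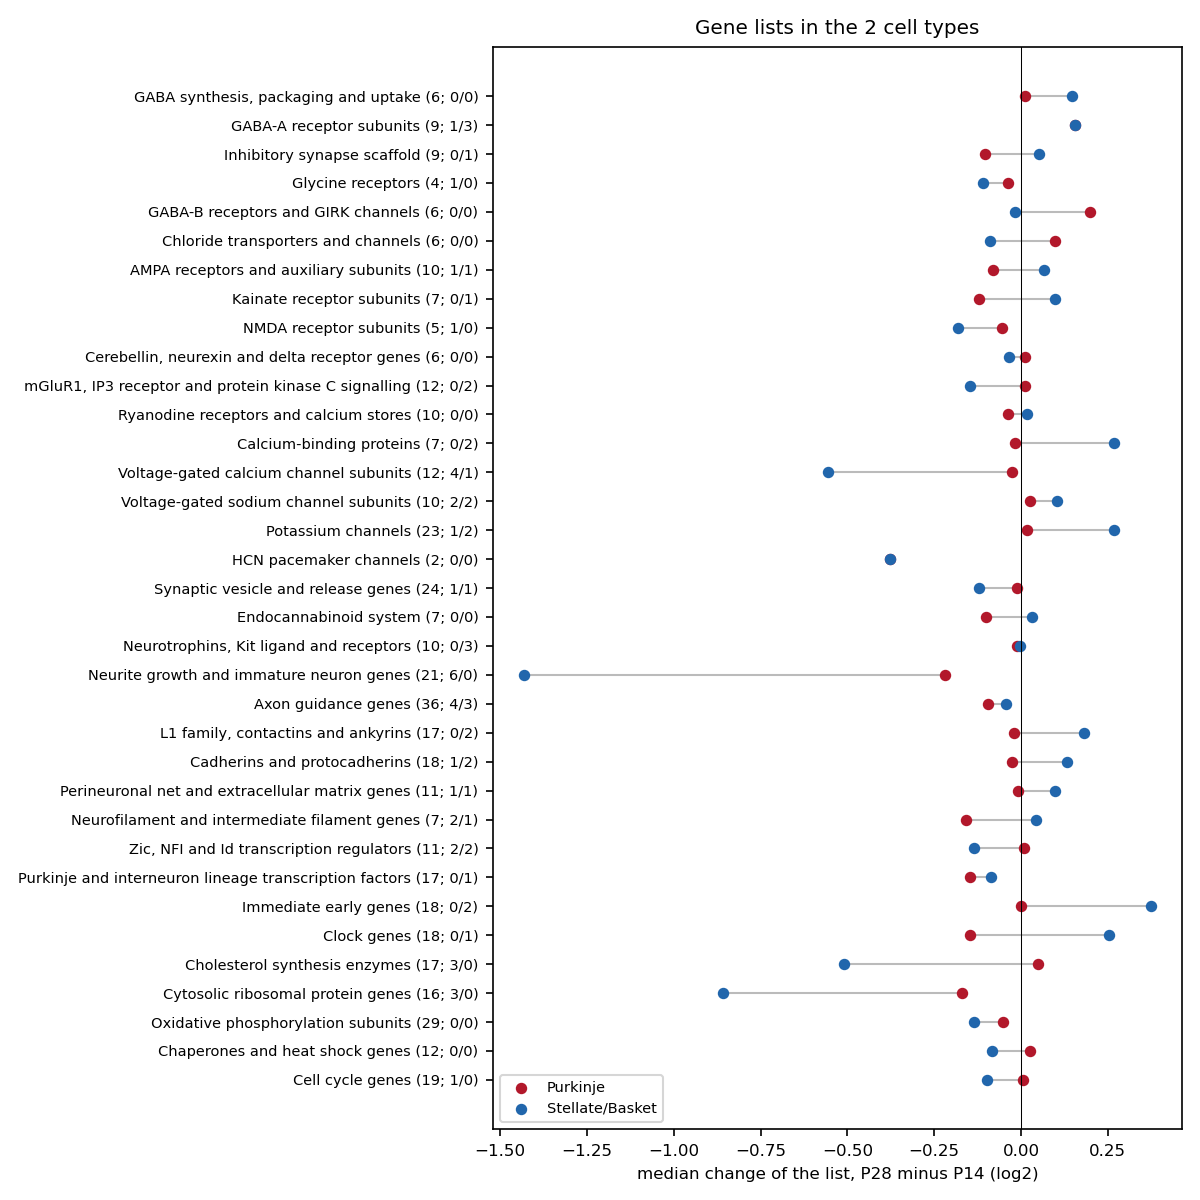
Median change from P14 to P28 (log2) of 35 functional gene lists in Purkinje cells (red) and Stellate/Basket cells (blue); brackets give the genes tested and the numbers called toward Purkinje and toward Stellate/Basket cells in the difference of changes. Neurite growth genes (medians of -0.22 in Purkinje and -1.43 in Stellate/Basket cells) and ribosomal protein genes (-0.17 and -0.86) lie farthest apart.

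Arrays of P21 and P35, which the comparison did not use, show the same genes at other ages. In Stellate/Basket cells the P21 mean lay between the P14 and P28 means in 92.8% of the 502 genes that rose and in 90.9% of the 408 that fell, and the median gene had made 55.1% and 57.0% of its change by P21. In Purkinje cells the median gene had made 23.4% of its rise (102 genes) and 33.2% of its fall (113 genes) by P21. These shares describe genes chosen on the P14 and P28 arrays. At P35 the median gene held 66.2% of its rise and 85.1% of its fall in Stellate/Basket cells, and 51.2% and 50.8% in Purkinje cells. The median share reached by P21 was higher in Stellate/Basket than in Purkinje cells, a difference that was not tested. Because the P14 and P28 arrays both chose the genes and set the full change, these shares cannot compare the pace of the cell types.

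**Figure D5:**
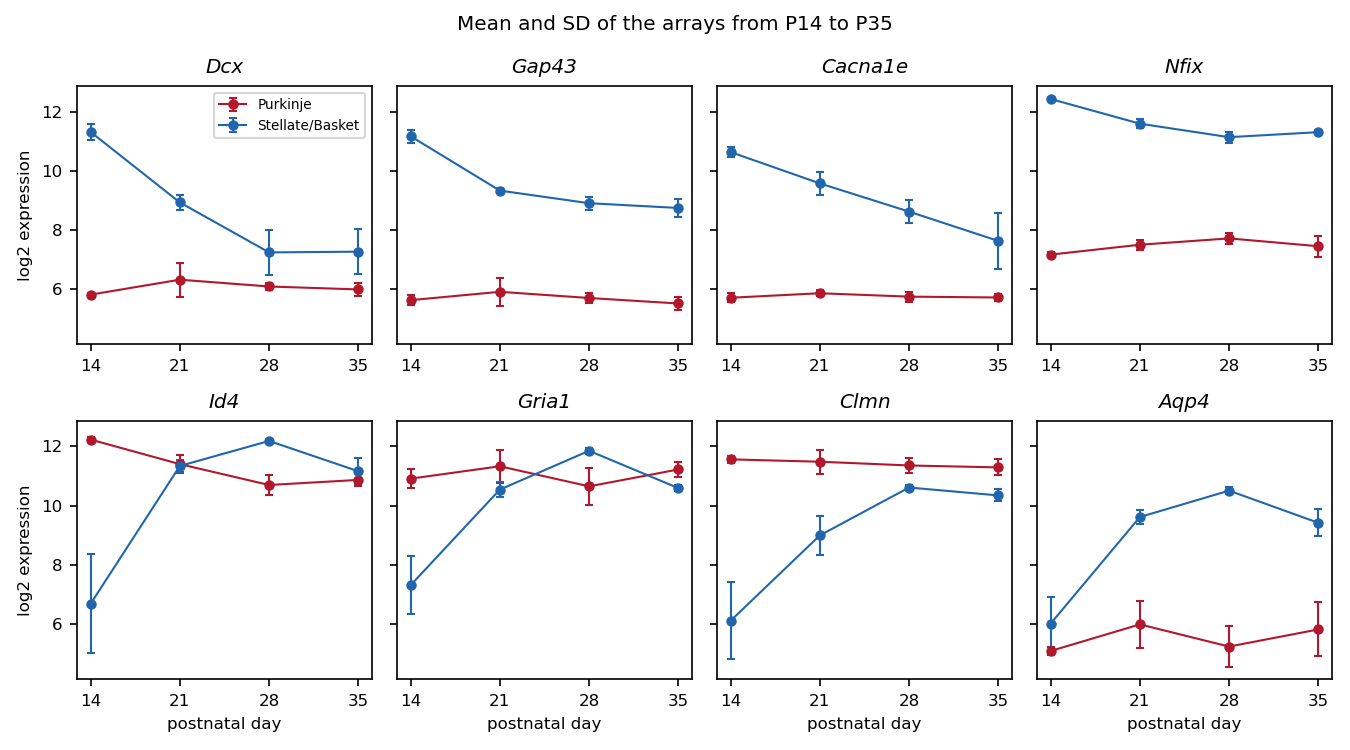
Mean log2 expression with the SD of the arrays at P14, P21, P28 and P35 in Purkinje cells (red) and Stellate/Basket cells (blue) for 8 genes. Dcx, Gap43, Cacna1e and Nfix come down in Stellate/Basket cells, Id4, Gria1, Clmn and Aqp4 come up between P14 and P28, and the Purkinje lines move less.

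The same difference of changes from P21 to P35 was called in 92 genes (0.526%), 48 toward Purkinje cells (0.275%) and 44 toward Stellate/Basket cells (0.252%). Of the 392 genes called toward Purkinje cells from P14 to P28, 12 (3.06%) were called in the same direction from P21 to P35 and 1 in the opposite. Of the 469 toward Stellate/Basket cells, 8 (1.71%) were called in the same direction. Cacna1e, Cacna1b and Sgpp2 were among the former, at 1.80, 1.41 and 1.85 (adjusted p = 0.026, 0.0103 and 0.0438), and Hopx, a homeodomain protein of Bergmann glia and Purkinje cells, was among the latter, at -1.35 (adjusted p = 0.0435). By sign alone, 65.6% of the 392 genes and 67.8% of the 469 went the same way from P21 to P35, against 45.0% and 55.1% of all genes. The later interval had 2 Stellate/Basket arrays at P35 and 3 at P21, and its count ranged from 22 to 360 when 1 array was left out, with 360 without replicate 2 of the Stellate/Basket cells at P35 and 22 without replicate 1. Xist was low in replicate 2 (7.55, with Eif2s3y at 7.69) and high in replicate 1 (12.54, with Eif2s3y at 4.39). Purkinje arrays held both states too, with low Xist in 1 of 4 at P21 (7.13) and 2 of 4 at P35 (6.83 and 7.03), and the part of this mixture in the later difference was not tested.

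Levels at P21 and P35 also tell where the called genes stand between the cell types. Of the 469 genes called toward Stellate/Basket cells, 105 (22.4%) were lower in Purkinje cells at both P21 and P35, against 3.89% of all genes, and 62 (13.2%) were higher in Purkinje cells at both, against 4.09%. Clmn and Nrk, given above, show the latter pattern at P14 and P28, with a rise toward but not up to the Purkinje level. Of the 392 genes called toward Purkinje cells, 49 (12.5%) were lower and 24 (6.12%) higher in Purkinje cells at both ages.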

How the data were processed

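Expression was measured on Affymetrix MOE430.2 arrays. The deposited values are on a log2 scale, as their range shows, and were made by the authors with GCRMA in R 2.9.1, per the submitters' processing notes; the annotation release and genome build were not stated in these sources. Of 42 columns, 2 equalled the mean of others of their group and were left out, which left 40 in 12 groups. Of 45101 probe sets, 34958 had 1 gene symbol in GEO's platform annotation, 932 several and 9211 none, and 34754 of the first were matched to RefSeq by gene identifier, with no symbol changed. Each of 18194 genes was read by its brightest probe set on average (9012 genes had more than 1), and 17478 genes above a log2 value of 5 in at least 3 arrays were tested. Arrays give no read depth, so the number of arrays limits the precision.

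A model with 12 group means was fitted with limma 3.58.1 in R 4.3.3 (lmFit, eBayes), and p-values were adjusted over all genes by the Benjamini-Hochberg method. The difference of changes, each change and the same difference from P21 to P35 were contrasts of this fit, which was tested on simulated data. Adjusted p of single probe sets are not printed. P-values measure the spread between arrays, which are labelled as biological replicates. Groups were taken from the labels; the fit was repeated with the alternatives that the closing section gives. Tables and plots were made in Python 3.11.15.

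Members and gene lists were chosen with earlier results of these data known. Named genes were the 10 largest calls in each direction, the 6 largest shared changes in each direction, opposite changes, up to 4 called members of a list (or the 2 largest where fewer than 2 were called) and Gad1, Pcp2, Calb1, Kit and Xist. Symbols made of clone or locus names (33 of the 861) were counted and not named, and Eif2s3y was added after its values were seen.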

Additional observations from a re-analysis of the deposited data

Results flagged for a closer look

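The difference of changes was itself a difference between groups and passed in 861 genes from P14 to P28 and in 92 genes from P21 to P35. Insm1 (3.41), Spag5 (-3.74) and Crim1 (-2.62) had called changes of opposite sign in the 2 cell types.

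Among 414 groups of 4 arrays of named genes, 34 (8.21%) had 1 array far from the other 3 by Dixon's ratio, where chance gives about 1 in 20. Replicate 2 of Purkinje cells at P28 stood apart in 7 genes, with Dpysl3 at 6.34, Pcp2 at 12.99, Gjd2 at 6.44, Gabra2 at 4.78, Cd24a at 4.66, Sema7a at 10.53 and Vim at 5.48. Replicate 1 of that group stood apart in 6, with Gja1 at 9.35, Cbln3 at 6.42, Slc6a5 at 6.96, Lhx1 at 10.74, Rrm2 at 5.08 and Calb1 at 13.50. In Stellate/Basket cells at P28, replicate 2 stood apart in Cpne8 at 5.30, Etl4 at 8.18, C1qa at 6.08, Kcnj9 at 9.75 and Slc12a7 at 6.07. Replicate 4 did so in Gabra6 at 8.47, Id2 at 9.06 and Lhx1 at 9.28, and replicate 1 in Rplp0 at 9.56. In Stellate/Basket cells at P14, replicate 3 stood apart in Dcx at 11.74, Ctnna1 at 6.64, Mog at 4.56, Kcnq3 at 8.19 and Cd24a at 9.66. Replicate 2 did so in Kctd8 at 9.32, Grin3a at 9.08, Syt2 at 10.51 and Ncan at 8.12, and replicate 1 in Cacnb4 at 9.16, Cdh10 at 5.07 and Per1 at 8.39.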

How the results depend on the processing

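The difference of changes from P14 to P28 was called in 861 genes. It was called in 82 with P21 as the last age, 462 with P35 as the last age, 454 at an adjusted p under 0.01, 1643 with no minimum difference, 1466 with array weights and 527 with the glial marker mean as a covariate, and in 605 to 890 without 1 array. The Purkinje change (215) numbered 79 at an adjusted p under 0.01, 1103 with no minimum difference, 522 with array weights, 112 with the mean of the probe sets, 347 with the probe set of highest variance and 82 to 264 without 1 array. The Stellate/Basket change (910) numbered 390 with the glial covariate, 566 with the mean of the probe sets, 2581 with no minimum difference and 838 to 960 without 1 array. The difference from P21 to P35 (92) numbered 195 with the 90th percentile of the array as a covariate, 3 at an adjusted p under 0.01, 242 with all 42 columns, 205 with array weights, 54 with the mean of the probe sets, 51 with the compared groups alone and 22 to 360 without 1 array. The cause of these moves was not tested, beyond the stricter or looser threshold itself.

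The share of higher calls in the Stellate/Basket change was 55.2%, 66.4% with the 90th percentile as a covariate and 63.2% after quantile normalization. In the difference of changes it was 45.5%, 52.8% after median centring and 36.9% with array weights. In the Purkinje change it was 47.4%, 54.0% after median centring, 54.2% after quantile normalization and 30.3% with array weights.

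Replicate numbers did not pair the arrays: over 21 pairs, the correlation of same-numbered arrays ran from -0.11 to 0.22, 3 were over 0.1, and 5 of 15 arrays correlated best with their own number. With a replicate block, 898, 232, 907 and 62 genes were called in the difference, the Purkinje change, the Stellate/Basket change and the later difference.

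Of 121 called values of named genes, 15 kept their call under every alternative run. The sign was reversed for Scn2b (0.16) with the mean of the probe sets, and for Scn2b (0.92), Pdxdc1 (-2.57), Syt2 (-0.0353) and Ntrk2 (0.17) with the probe set of highest variance. The mean used as the glial covariate includes Aqp4 and Gja1 themselves. With this covariate the sign was reversed for Aqp4 (0.0258), Gja1 (4.12), Gabrb1 (0.50) and the Stellate/Basket changes of Fam107a (-4.91) and Gpm6b (-1.72). It was also reversed for Gabra6 (0.14) with P21 as the last age, and for Cd24a (-0.56), Cntn1 (0.26), Rplp2 (-0.11) and Rps19 (-0.66) with P35 as the last age.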

Other observations

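Marker lists of the remaining cell types are set against 4.93% of all genes called in the difference of changes. Of 7 granule cell markers 1 moved toward Stellate/Basket cells, Gabra6, a receptor subunit of granule cells. Of 7 oligodendrocyte markers 1 moved toward Purkinje cells, Mog, a myelin protein, which was 4.69 to 4.84 in Purkinje cells at P14 and 5.17 to 6.91 at P28. Of 6 microglia markers 2 moved toward Stellate/Basket cells, Csf1r and C1qa. Gabra6 lost its call with the Purkinje arrays of low Xist, and Mog, Csf1r and C1qa lost theirs with those of high Xist. Of 6 endothelial markers 0 were called by limma and 1 had an unadjusted p under 0.05, and of 6 markers of Golgi and unipolar brush cells 0 were called and 0 had an unadjusted p under 0.05.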
